A study of Xenopus laevis with 3 samples.

Results

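The neuronal cytoskeleton and growth genes nefl, nefm, prph, sncg, gap43, stmn2, stmn3, tubb3, elavl4 and elavl3 were followed in the larval inner ear of Xenopus laevis. These 10 of 9255 annotated genes were found by their symbols in the platform annotation, with the ending that names the L or S copy removed, which gave 18 of the 32635 probe sets in the table. Inner ears were pooled from larvae bought from a supplier, at stages 56 to 58 and 38 to 44 days after fertilization, with no treatment, and RNA of each pool was hybridized to 1 Affymetrix GeneChip array. The labels give 10 animals for replicate 1, 7 for replicate 2 and 8 for replicate 3, so the study holds 1 group and no control tissue. The values are GCRMA values, which are log2 intensities with background corrected and arrays normalized by the authors, and a difference of 1 is a doubling of the signal. With 1 array for each of 3 pools, the precision of every mean is limited by that number.

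Afferent neurons of the eighth cranial nerve have their cell bodies in a ganglion beside the ear and send processes to the hair cells and to the hindbrain. Neurofilaments set the calibre of such axons, and transport along them runs on microtubules built partly from the neuronal beta tubulin Tubb3. Stathmins bind free tubulin and GAP-43 lies at the membrane of growth cones, so both are known from growing axons. ELAV proteins of the Hu group bind RNA in postmitotic neurons and are used as markers of them. X. laevis is allotetraploid, and many genes are present as an L copy and an S copy.

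In the inner ear 9 of the 10 members were detected, which here means a probe set with a mean GCRMA value of 4 or higher, the criterion of the study. Of the 18 probe sets 16 reached 4, beside 64.8% of the 32475 frog probe sets, and these 16 also had a mean above 4 in limma's one-sided test at an adjusted p under 0.05, beside 63.1%. By gene, 79.9% of 9255 annotated genes had at least 1 probe set at 4 or higher, so detection of 9 of 10 members is not a result that sets them apart. The 16 detected probe sets had means from 8.28 to 13.84, and no member probe set had arrays on both sides of 4. The median over all 18 was 9.98, beside 7.51 over all frog probe sets, which include more undetected ones. Over detected probe sets alone the medians lay closer, at 10.099 for the 16 of the members and 9.677 for frog probe sets. Probe sets bind their targets with different strength, so values are compared between arrays and not between genes.

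Of the 18 probe sets 11 are annotated with the L copy, 5 with the S copy and 2 with both copies of a gene. The members nefm, prph, sncg, gap43 and stmn3 have a separate probe set for each copy. A suffix _s_at, which marks probes shared between transcripts, is carried by the 2 probe sets of both copies, and elavl4 has a suffix _a_at, which marks shared variants of 1 gene. RefSeq annotation of assembly v10.1 holds all 16 copies named by the member probe sets under the same gene IDs and symbols. In that assembly nefl and nefm are direct neighbours in both subgenomes, and nefl.S is listed there without a probe set among the members.

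The neurofilament genes had clear signals on every array, and replicate 2 was the lowest for each of them. The light subunit gene nefl.L (Xl2.991.1.S1_at) had GCRMA values of 10.03, 9.06 and 10.39 in replicates 1, 2 and 3, with the mean at 9.83 ± 0.68 (SD, n = 3). The middle subunit gene nefm.L (Xl2.173.1.S1_at) had 9.76, 8.44 and 10.09, a mean of 9.43 ± 0.88 (SD, n = 3), and nefm.S (Xl2.174.1.S1_at) had 9.88, 8.59 and 10.36, a mean of 9.61 ± 0.92 (SD, n = 3). In all 3 probe sets replicates 1 and 3 lay near each other and replicate 2 stood well below both. Replicate 3 was 2.50-fold above replicate 2 for nefl.L, 3.15-fold for nefm.L and 3.41-fold for nefm.S. The limma adjusted p for a mean above 4 was 6.0e-05, 0.00018 and 0.00019 for these 3 probe sets.

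Peripherin, the intermediate filament of peripheral neurons, differed little between the arrays. The prph.L probe set (Xl2.27.1.S1_at) had GCRMA values of 8.52, 8.08 and 8.50 in replicates 1, 2 and 3, with the mean at 8.36 ± 0.25 (SD, n = 3). The prph.S probe set (Xl2.16232.1.S1_at) had 8.34, 8.21 and 8.30, a mean of 8.28 ± 0.07 (SD, n = 3). Replicate 2 was again the lowest array for both copies, but replicate 3 exceeded it by only 0.42 for prph.L and 0.10 for prph.S on the log2 scale. The spread over arrays was the smallest of all detected members for prph.S, with an SD of 0.069, and the largest for sncg.L, with an SD of 1.02.

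The neuronal beta tubulin tubb3.L (Xl2.49103.1.S1_at) had GCRMA values of 11.46, 10.67 and 11.91 in replicates 1, 2 and 3, with the mean at 11.35 ± 0.63 (SD, n = 3). Replicate 2 was the lowest and replicate 3 the highest, 2.36-fold above it.

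Stathmins were detected by probe sets of both copies, with 1 exception. The stmn2.L probe set Xl2.10.1.S1_at, for the neuronal stathmin also called SCG10, had GCRMA values of 11.28, 10.60 and 11.60, a mean of 11.16 ± 0.51 (SD, n = 3). The probe set shared by stmn2.L and stmn2.S (Xl2.10.2.S1_s_at) had 12.75, 12.52 and 12.99, a mean of 12.75 ± 0.23 (SD, n = 3). A further probe set annotated as stmn2.L (Xl2.49734.1.S1_at) was at the floor of the arrays with 1.988, 1.998 and 1.989, so the 2 probe sets of this copy lie on opposite sides of the criterion. The related stathmin stmn3.L (Xl2.53848.1.S1_at) had 9.88, 9.56 and 10.37, a mean of 9.94 ± 0.41 (SD, n = 3), and stmn3.S (Xl2.21810.1.S1_at) had 9.92, 9.41 and 10.71, a mean of 10.01 ± 0.65 (SD, n = 3). All 4 detected stathmin probe sets had their lowest value in replicate 2 and their highest in replicate 3. Replicate 3 exceeded replicate 2 by 1.00 on the log2 scale for stmn2.L and by 0.47 for the shared probe set, and by 0.81 and 1.30 for stmn3.L and stmn3.S.

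The growth cone gene gap43 was the only detected member without its lowest value in replicate 2. The gap43.L probe set (Xl2.9994.1.S1_at) had GCRMA values of 11.57, 11.79 and 11.94 in replicates 1, 2 and 3, with the mean at 11.77 ± 0.19 (SD, n = 3). The gap43.S probe set (Xl2.1133.1.S1_at) had 11.55, 11.71 and 12.03, a mean of 11.77 ± 0.24 (SD, n = 3), and the probe set shared by both copies (Xl2.9994.1.S1_s_at) had 13.74, 13.82 and 13.96, a mean of 13.84 ± 0.11 (SD, n = 3). In all 3 probe sets replicate 1 was the lowest and replicate 3 the highest, and the largest difference between arrays was 0.48 on the log2 scale. Whether this small spread differs from that of nefm or sncg was not tested.

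Gamma-synuclein, a small protein of sensory and motor axons, had the widest difference between pools. The sncg.L probe set (Xl2.47046.1.S1_at) had GCRMA values of 10.01, 8.75 and 10.76, a mean of 9.84 ± 1.02 (SD, n = 3). The sncg.S probe set (Xl2.11348.1.S1_at) had 12.98, 12.58 and 13.41, a mean of 12.99 ± 0.42 (SD, n = 3). Both copies followed the same order, with replicate 2 lowest and replicate 3 highest. Replicate 3 was 4.04-fold above replicate 2 for sncg.L and 1.78-fold for sncg.S. The limma adjusted p of sncg.L for a mean above 4 was 0.00023, the highest of the 16 called probe sets.

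Of the neuronal ELAV genes 1 was detected and 1 was not. The elavl4.L probe set (Xl2.1036.2.S1_a_at), for the RNA-binding protein HuD, had GCRMA values of 10.22, 9.48 and 10.86, a mean of 10.19 ± 0.69 (SD, n = 3), with replicate 3 at 2.59-fold of replicate 2. The elavl3.L probe set (Xl2.1035.1.S1_at), for HuC, had 1.99, 1.91 and 2.37, a mean of 2.09 ± 0.24 (SD, n = 3), near the floor of the arrays. This was the only probe set of elavl3, so its transcript was not detectable by this probe set, which does not show that it is absent.

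**Figure D1:**
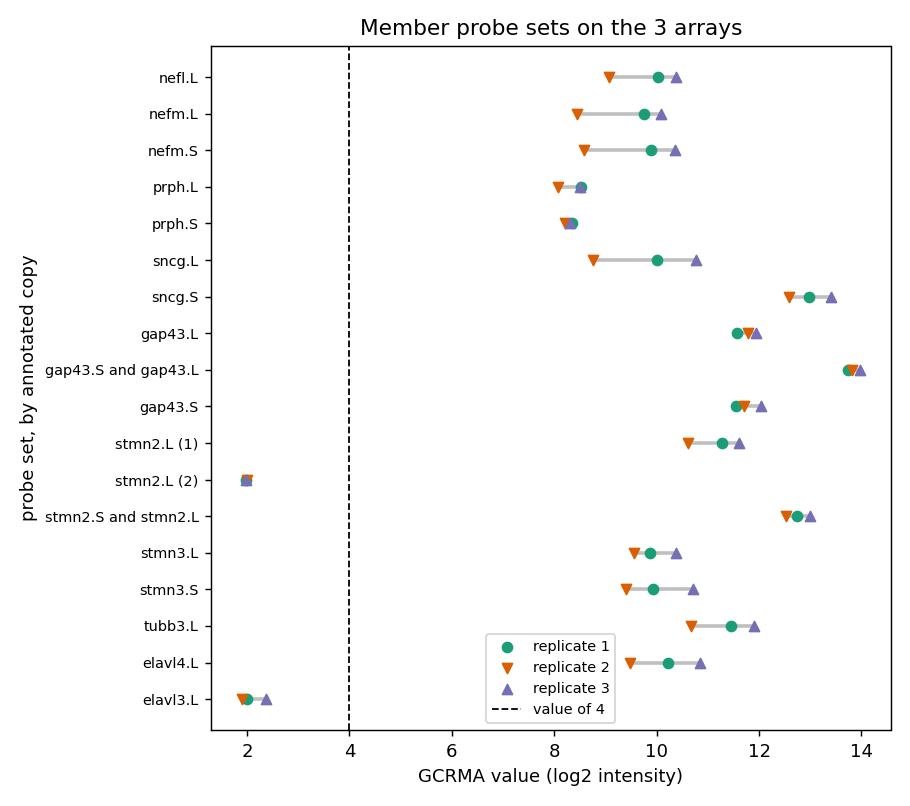
GCRMA values (log2 intensity, horizontal axis) of the 18 member probe sets (vertical axis) on the arrays of replicates 1, 2 and 3, with a grey bar over the range and a dashed line at 4. The 16 detected probe sets lie between 8.08 and 13.96, replicate 2 is the leftmost point in 13 of them, and elavl3.L and the second stmn2.L probe set lie at about 2.

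Differences between the ear pools were found in most members, with replicate 2 mostly the lowest. Of the 16 detected probe sets 10 had a range of 0.5 or more over the 3 arrays, beside 25.1% of the 21031 detected frog probe sets, and the median range was 0.91, beside 0.30. Without replicate 2 the count was 3. Replicate 2 was the lowest array for 13 of the 16, beside 32.7%, and replicate 1 for the other 3, which are those of gap43. No detected member had its lowest value in replicate 3, beside 35.8%. Replicate 3 was the highest for 14, beside 32.1%, and replicate 1 for both probe sets of prph. The full order of replicate 2 below 1 below 3 was seen in 11, beside 17.4%. These shares are descriptions over probe sets that share arrays, copies and in part their targets, and with 1 array for each pool no test between pools can be made.

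Replicate 3 exceeded replicate 2 in all 16 detected member probe sets. The median difference was 0.91 on the log2 scale, beside -0.01 over all detected frog probe sets. The normalization between arrays sets that second value near 0. A difference of 1 or more was seen in 7 probe sets, of nefl, nefm, tubb3, stmn3, sncg and elavl4, beside 2.45% of detected frog probe sets, and stmn2.L lay just under 1 before rounding. The largest difference, 2.01 for sncg.L, was higher than in 99.5% of detected frog probe sets, while that of prph.S was higher than in 66.0%. Taken separately over the same probe sets, the step from replicate 2 to replicate 1 had a median of 0.48 and that from replicate 1 to replicate 3 had 0.40. Such medians need not add up to the median difference between replicates 3 and 2. In whole tissue RNA, the number of cells of a kind and the RNA per cell cannot be told apart.

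**Figure D2:**
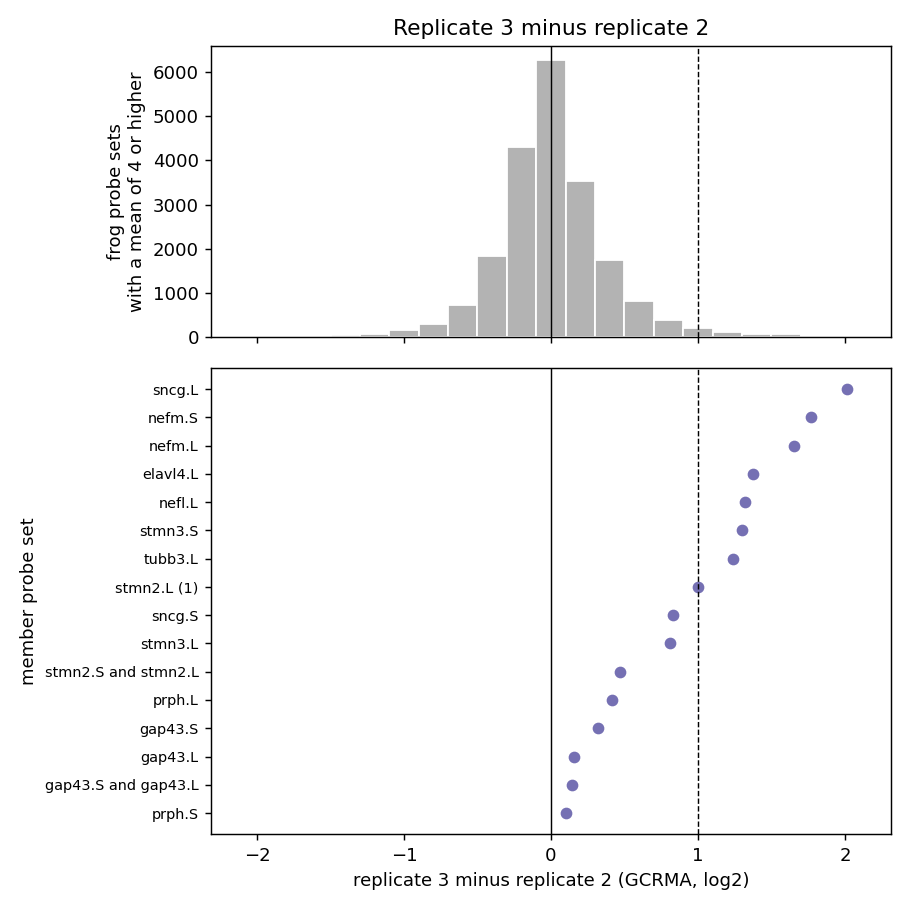
Replicate 3 minus replicate 2 in GCRMA value (log2, horizontal axis) as a histogram of detected frog probe sets (upper panel, number of probe sets in bins; 131 lie outside the bins) and for each detected member probe set (lower panel), with lines at 0 and 1. All 16 member points lie right of 0, from 0.10 for prph.S to 2.01 for sncg.L, while the frog probe sets centre at -0.01.

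The pools also differed in what the labels give for the animals. Mean body weight was 0.55 ± 0.11 g in replicate 1, 0.59 ± 0.10 g in replicate 2 and 0.48 ± 0.05 g in replicate 3, and mean length was 5.03 ± 0.30 cm, 5.07 ± 0.29 cm and 4.93 ± 0.29 cm. Thus the pool with the heaviest larvae had the lowest values of 13 of the 16 detected member probe sets and the pool with the lightest had the highest of 14. Weight, length and number of animals changed with the pool, and each pool was hybridized to its own array. The labels do not say whether dissection varied or how the stages were mixed within a pool. The parts of all these in the difference cannot be told apart.

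In the 5 members with a separate probe set for each copy, the L and S copies followed each other across the pools. For nefm the deviation of replicate 2 from the mean of the arrays was -0.99 for the L copy and -1.02 for the S copy. For sncg it was -1.09 and -0.41, for stmn3 -0.38 and -0.60, and for prph -0.29 and -0.08. For gap43 the deviations of replicate 2 were 0.02 and -0.05, and those of replicate 1 were -0.20 and -0.21. Both copies of each of these 5 genes had the same lowest and the same highest array. Probes of near-identical copies can bind both transcripts, so the values of 2 copies are not independent measurements.

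**Figure D3:**
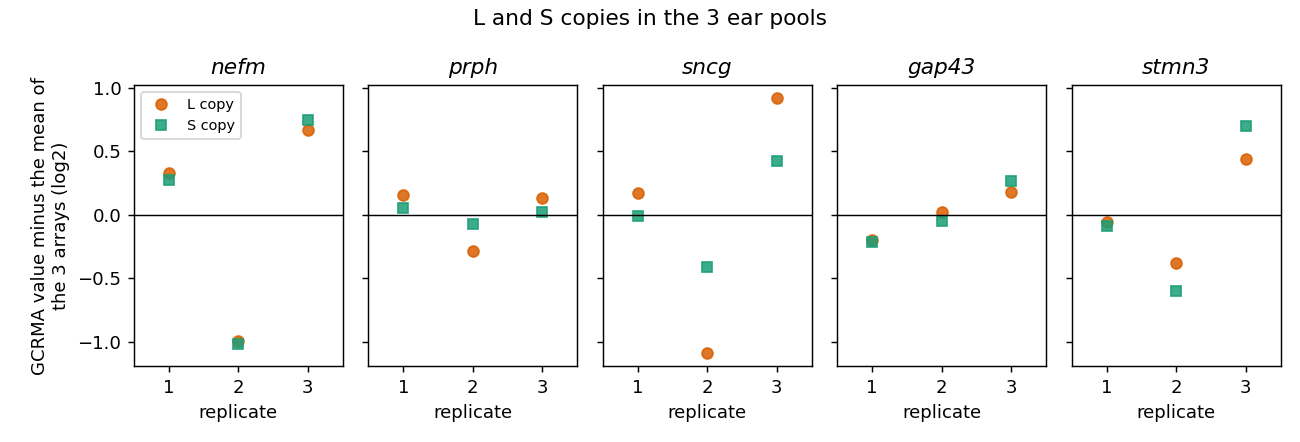
GCRMA value minus the mean of the 3 arrays (log2, vertical axis) in replicates 1, 2 and 3 for the L copy (circles) and S copy (squares) of nefm, prph, sncg, gap43 and stmn3. The copies of each gene share their lowest array, which is replicate 2 with -0.99 and -1.02 for nefm and replicate 1 with -0.20 and -0.21 for gap43.

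Other genes of the axon and its cytoskeleton were taken from 11 lists, of which 40 of 72 genes have 92 probe sets here. Limma called 70 of these 92 as above 4 and did not call 22, and 34 of the 40 genes had a probe set at 4 or higher, beside 79.9% of annotated genes. In 72 detected probe sets the median of replicate 3 minus replicate 2 was 0.08 on the log2 scale, 13 had a difference of 1 or more, beside 2.45% of detected frog probe sets, and 26 had replicate 3 below replicate 2. The order of replicate 2 below 1 below 3 was seen in 26 of the 72, beside 17.4%. The median of the lists thus lay below that of the members, while both counts were above the share over all detected frog probe sets.

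Detected probe sets of neuronal relatives of the filament, stathmin, synuclein and ELAV members were lowest in replicate 2. Of all detected frog probe sets 32.7% were lowest in that array. The grouping as neuronal relatives was made after the values were seen. It leaves out the tubulins, given below, of which none of 12 detected probe sets was lowest in replicate 2. The gene of alpha-internexin, a further neuronal intermediate filament, had GCRMA values of 9.22, 7.65 and 9.33 in replicates 1, 2 and 3 for ina.L, while ina.S was at the floor, with no array above 2.01. The neuronal stathmin stmn4 had 7.48, 6.67 and 8.02 for its L copy and 7.22, 6.40 and 7.98 for its S copy. Beta-synuclein, a presynaptic protein, had 12.09, 11.19 and 12.53 for sncb.L and 10.93, 10.52 and 11.41 for sncb.S, and the probe set of both copies had 8.75, 8.26 and 8.91. All 6 detected probe sets of these 3 genes had the order of replicate 2 below 1 below 3. The neuronal ELAV gene elavl2 had 7.12, 6.53 and 7.68 on 1 probe set and lay at the criterion on the other, with 3.70, 3.37 and 4.94.

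Relatives that are also used by dividing or non-neuronal cells had no common order over the pools. Tubulins other than tubb3 are given with them, without a split into neuronal and widely used ones. The stathmin stmn1, known from proliferating cells, had GCRMA values of 13.64, 13.67 and 13.72 for its S copy and 11.53, 11.65 and 11.49 for its L copy. The ubiquitous ELAV gene elavl1.S had 11.20, 11.56 and 11.39, and the probe set of both copies of elavl1 had 9.32, 8.97 and 9.17. Vimentin, a filament of mesenchymal and glial cells, had 13.58, 13.56 and 13.73 for vim.L and 13.98, 13.89 and 13.92 for vim.S. The vimentin probe sets and the shared elavl1 probe set were thus also lowest in replicate 2. The 3 probe sets of nes.S, the filament of neural progenitors, had means of 3.80, 2.72 and 2.16 and were not detected. Among 12 detected tubulin probe sets none had its lowest value in replicate 2, beside 32.7% of detected frog probe sets. The median of replicate 3 minus replicate 2 over these 12 was -0.05. A range of 0.5 or more was seen in 3, those of tuba1c.L, tubb6.L and tubb4b.L, beside 25.1% of detected frog probe sets. The beta tubulin tubb2b.S, a relative of tubb3, had 12.54, 12.66 and 12.98, lowest in replicate 1. The tubulin genes with the highest values, tubb4a, tubb and tuba1c, included tubb4a.S at 14.46, 14.64 and 14.57 and tubb.L at 14.03, 14.15 and 14.11, while tuba1c.L had 6.05, 6.55 and 5.29. Whether the neuronal relatives differ from the widely used ones was not tested, and the grouping was made after their values were seen.

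Growth cone and axon genes were mixed. The collapsin response mediator crmp1.L, which acts in semaphorin signalling, had GCRMA values of 7.68, 7.12 and 8.37, whereas dpysl2.L had 11.31, 11.46 and 11.36. For dpysl3 the copies differed in their order, with 12.23, 12.04 and 12.28 for dpysl3.L and 12.91, 12.83 and 12.66 for dpysl3.S. For dpysl4.L, detected and undetected probe sets are annotated with the same gene, from a mean of 11.86 down to the floor, and dpysl2.L has 2 further probe sets at 2.13 and 2.72. The neuronal membrane glycoprotein gpm6a.L had 10.31, 9.93 and 11.12 on the probe set with its highest mean. A second gpm6a.L probe set had 4.26, 4.04 and 6.31 and was not called by limma, with an adjusted p of 0.146 for a mean above 4. The related gpm6b.S, known from glia as well, had 12.62, 12.94 and 12.96. The growth cone proteins basp1 and marcks, which resemble GAP-43 in binding membrane lipids, had 12.74, 12.57 and 12.66 for basp1.L and 13.98, 14.03 and 13.91 for marcks.S, and marcksl1.S had 12.89, 12.51 and 12.39. The widest range among the basp1, marcks and marcksl1 probe sets was 0.95 for basp1.S, at 12.19, 11.25 and 11.76, and the others had ranges of 0.09 to 0.50.

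Tau, the axonal microtubule-associated protein, was detected by 3 probe sets, and mapt.L had GCRMA values of 12.20, 12.17 and 12.53 on the one with the highest mean. The probe sets of map2.S and map4.L were at 2.33 and 2.06 and were not detected. The kinesin light chain klc1.S had 10.37, 9.61 and 10.82, the same order as the neurofilaments, while the dynein light chain dynll1.L had 13.50, 13.60 and 13.52 on its highest probe set and the dynactin subunit dctn1.L had 12.12, 12.13 and 12.26. A probe set of dynll1.S had 11.64, 11.67 and 10.39, with replicate 3 the lowest. Of the adhesion molecules, l1cam.S had 9.75, 9.15 and 9.89 and nrcam.L had 9.11, 8.93 and 9.21, whereas ncam1.S was highest in replicate 1 with 11.23, 10.65 and 10.58. The ubiquitin hydrolase uchl1.S had 10.40, 10.16 and 10.56, and the spectrin sptan1.L had 7.61, 7.36 and 7.95 on its highest probe set, while sptan1.S was not detected at 2.04.

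**Figure D4:**
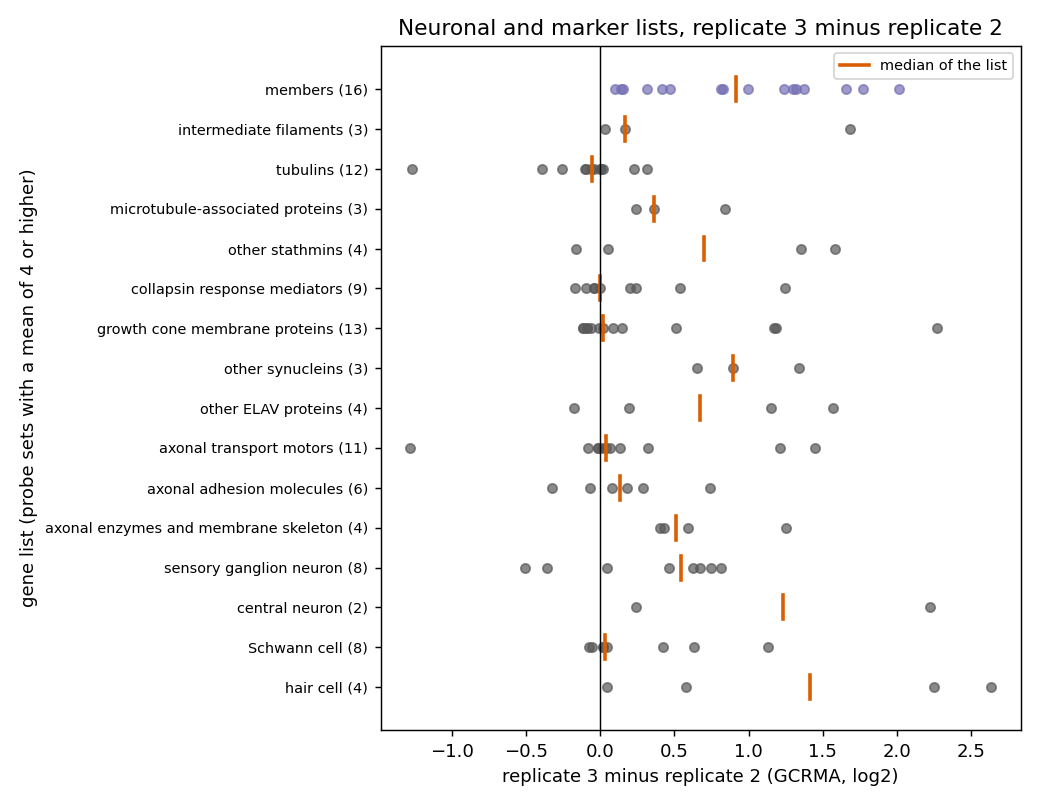
Replicate 3 minus replicate 2 in GCRMA value (log2, horizontal axis) for detected probe sets of the members and of each gene list (vertical axis, number of probe sets in brackets), with 1 point for each probe set and an orange bar at the list's median. The members' median is 0.91, that of the tubulins -0.05 and that of the Schwann cell list 0.03. The sensory ganglion, central neuron and hair cell lists have medians of 0.55, 1.23 and 1.41. The central neuron list has 2 points, 1 of them of the astrocyte gene aldh1l1.L. The hair cell list has 4 points of 3 genes, with the highest from calb1.

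Markers of the cells these transcripts could come from were read beside the members. Of 16 sensory ganglion neuron genes 8 have a probe set, and 6 of these were detected, beside 79.9% of annotated genes. Over their 8 detected probe sets the median of replicate 3 minus replicate 2 was 0.55, and 2 had replicate 3 below replicate 2. Of the 8, 3 were lowest in replicate 2, beside 32.7% of detected frog probe sets. The order of replicate 2 below 1 below 3 was seen in 2, beside 17.4%. The LIM homeobox gene isl1.S, which is also expressed in the otic epithelium, had GCRMA values of 13.77, 13.77 and 13.81 on one probe set and a mean of 1.97 on another. The proneural gene neurod1.S had 10.37, 9.96 and 9.45, lowest in replicate 3 and so against the order of the members, with neurod1.L at the floor. The neurotrophin receptor ntrk2.L had 7.19, 7.63 and 8.44, and 2 of its 4 probe sets were under 4. The calcium buffer pvalb.S had 8.88, 8.57 and 9.24, but the probe set of both pvalb copies had 13.04, 13.30 and 12.94, highest in replicate 2 and lowest in replicate 3. The factor runx1.L had 6.24, 5.59 and 6.06 on one probe set and a mean of 3.12 on the other. Both probe sets of pou4f1, a defining factor of sensory ganglion neurons, were at the floor with means of 1.84 and 1.88, and tlx3 was at 1.87. Only the L copy of pou4f1 and the S copy of tlx3 have probe sets, and floor values do not show that a transcript is absent. Whether the members' transcripts come from ganglion neurons was not tested, so the members are called neuronal genes here.

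Few genes of the central neuron list were detected. This list also holds genes of central glia. Among its 14 genes 7 have a probe set and 2 were detected, beside 79.9% of annotated genes. These were the glutamate transporter slc17a7.S, at 8.11, 6.64 and 8.87, and the astrocyte enzyme aldh1l1.L, at 8.38, 8.25 and 8.49. Both had the order of replicate 2 below 1 below 3. Replicate 3 minus replicate 2 was 2.22 for slc17a7.S and 0.24 for aldh1l1.L. Their median of 1.23, beside 0.91 for the members, thus joins a neuronal and a glial gene. The regional brain genes en1, en2 and neurod6 were under 4 on every array, and the inhibitory transporter slc32a1.S had a mean of 2.52. Summed over the list, log2 of the intensity was 9.34, 8.79 and 9.76 in replicates 1, 2 and 3. The autonomic gene ret.S was not detected, at 2.48. The part of brain or autonomic tissue in the members' values was not tested beyond these levels. Whether the slc17a7.S signal came from central neurons or from ganglion neurons was not tested either.

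Genes of Schwann cells, which wrap such axons, were mixed. Of 12 genes 6 have a probe set and 5 were detected, beside 79.9% of annotated genes. Peripheral myelin protein pmp22.L had GCRMA values of 14.60, 14.68 and 14.63, mbp.L had 14.44, 14.58 and 14.50, and the glial lipid carrier fabp7.L had 13.64, 13.87 and 14.29. The median of replicate 3 minus replicate 2 over 8 detected probe sets was 0.03. Their means had a median of 14.15, above the highest mean of a member probe set, 13.84. For mbp.S this difference was 0.63 on the probe set with a mean of 12.57 and 0.02 on that with 14.36. By contrast, it was 0.04 for sox10.L at a mean of 11.18 and 0.42 for fabp7.L at 13.93. Whether high signals hold such differences down was not tested, which limits a comparison of this median with that of the members. A range of 0.5 or more over the arrays was seen in 3 of the 8, beside 25.1% of detected frog probe sets. The log2 of the summed intensity was 16.79, 16.86 and 16.94 in replicates 1, 2 and 3. The largest difference of the list between replicates 3 and 2 was that of cnp.L, a myelin enzyme named after its values were seen, with 6.25, 5.71 and 6.84, and 1 of the mbp.S probe sets had 12.40, 12.34 and 12.98. The hair cell list has 3 of 13 genes here, all detected, beside 79.9% of annotated genes. Its log2 of the summed intensity was 12.62, 12.46 and 12.98. All 4 of its probe sets were lowest in replicate 2, beside 32.7% of detected frog probe sets. Its median of replicate 3 minus replicate 2 was 1.41, above the 0.91 of the members. This median joins unlike values, 2.64 for calb1.L, 2.25 for calb1.S, 0.58 for lhx3.L and 0.05 for myo6.L. The calcium buffer calb1 had 8.19, 8.15 and 10.79 for its L copy and 8.09, 7.72 and 9.96 for its S copy, so replicate 3 stood apart, while myo6.L had 12.48, 12.32 and 12.37 and lhx3.L had 5.29, 4.41 and 4.99.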

How the data were processed

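Inner ear RNA of 3 pools of larvae was measured on Affymetrix GeneChip arrays for X. laevis. The deposited log2 values were made by the authors with GCRMA, which corrects background, normalizes between arrays and summarizes probe sets. The software version is not given in the sources used here. The table holds 32475 frog probe sets and 160 controls and reporters, with array medians over frog probe sets of 7.51, 7.52 and 7.55 and Pearson's r between arrays of 0.994 to 0.996. The spread between arrays includes that between pools of animals. A single gene symbol is given for 15495 of the frog probe sets, several symbols for 279 and no symbol for 16701. Probe sets whose several symbols are copies of 1 gene were kept, which holds for 2 member probe sets.

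A mean above 4 was tested with limma 3.58.1 in R 4.3.3, one-sided and with the prior variance following the mean. The p-values were adjusted over all frog probe sets by the Benjamini-Hochberg method. Simulated data were used to check the share called at set means above 4 and at means of 4 or lower. The share of false calls among all calls was not checked there. Other values were computed in Python 3.11.15 with pandas 2.3.3 and numpy 2.4.6. Differences between arrays are given without a test. Every member probe set is named. Of other lists, all genes of lists with 6 or fewer genes are named. For longer lists the 3 genes with the highest mean and those with probe sets on both sides of 4 are named. The genes pou4f1, tlx3, en1, en2, neurod6, cnp, sox10, tubb6, tubb4b and tubb2b were named after their values were seen. The members and lists were chosen with earlier results of these data known. Probe and protein sequences were not used here.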

Additional observations from a re-analysis of the deposited data

How the results depend on the processing

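The count of 16 member probe sets above 4 was the same at thresholds of 3, 5 and 6, with medians, with all 3 arrays required, under both normalizations (each array centred on its median, quantile) and without any 1 array. In limma it was also 16 with null values of 5 and 6 and without the trend, and 14 when only probe sets with a single symbol were tested, which leaves out the 2 of both copies. Of the members 9 were detected, or 8 when every probe set of a gene had to reach 4. The count with a range of 0.5 or more rests largely on replicate 2, since it was 10 over 3 arrays and 3 without replicate 2, and between 3 and 10 without any 1 array. A comparison with 2 arrays has a smaller range by construction. Counts by array order stayed within 1.5 times under the alternatives run, and 8 rather than 7 probe sets had replicate 3 above replicate 2 by 1 or more under quantile normalization. Apart from the count lowest in replicate 3, the alternatives for these counts were chosen after seeing the data. The other normalizations moved this difference by at most 0.032 on the log2 scale and turned no sign among the 16 detected probe sets. For the undetected stmn2.L probe set it was -0.0085, and 0.0031 under quantile normalization. Probe sets at the floor carry no order between arrays.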
